A study of Mus musculus with 6 samples.

Results

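Liver-enriched transcription factors are the nuclear proteins that together switch on the genes of the hepatocyte. 8 of them were followed here, out of 35683 genes measured in the series. They were chosen by name: *Hnf4a*, *Foxa1*, *Foxa2*, *Foxa3*, *Cebpa*, *Cebpb*, *Onecut1* and *Prox1*. The RNA came from 6 liver tumors, 3 from mouse 2 and 3 from mouse 1. Both mice were male CMRtdT animals on a C57BL/6 background. They carried a *Ctnnb1* allele whose exon 3 is deleted by Cre in heterozygosity, the *MUP-uPA* transgene that injures hepatocytes, and a *ROSA26* tdTomato reporter that stays silent until Cre acts. Both were fed a high-fat diet (HFD) from 6 weeks of age and were injected at 8 weeks with AAV8-TBG-Cre, in which the hepatocyte-specific TBG promoter drives Cre. Tumors were excised 6.5 months after the injection. Genotype, diet and virus were thus shared by all samples, non-tumor liver was not analysed here, and the tumors of each mouse share 1 animal.

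The hepatic factors form a network in which several bind and activate the genes of others. HNF4A, a nuclear receptor, and the CEBP proteins sustain genes for plasma proteins and metabolism. FOXA proteins open chromatin for other factors, and ONECUT1 and PROX1 act early, when hepatoblasts emerge from the endoderm. *Hnf4a* has a P1 promoter, used in adult liver, and a P2 promoter, used in fetal liver and pancreas.

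Levels are given in TPM, a transcript abundance that is divided by length and scaled to a fixed total in each library, so they may be compared between genes. Because TPM is a share of all RNA, and because these are bulk tumors, fewer cells of a type and less RNA per cell cannot be told apart. The libraries held 19130532 to 27681766 estimated counts. Tumor 1 of mouse 1 stood apart from the others in its hepatocyte RNA. Its 8 measured hepatocyte markers were at 1.46% to 5.35% of the median of the other 5 tumors, with 702 TPM of albumin mRNA (*Alb*) against 8348 to 16603 TPM. The label of liver therefore matches its defining markers poorly in that tumor, and values are given with and without it. Tumors 2 and 3 of mouse 1 were the closest pair. The median chi-square of their counts was 1.41 per gene, against 6.68 to 221 in the other pairs and 0.455 from sampling alone. Separate preparations of 1 tissue could also exceed sampling, so the value does not show that they are separate tumors. They were counted as 2 samples because the labels list them so.

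The promoters of 3 members are shown because they hold short motifs of factors in this network. They are RefSeq sequences of GRCm38.p6 that end before the first base of any annotated coding transcript, written along the strand of the gene. Capitals mark the motif, which in *Foxa2* and *Foxa1* appears as its reverse complement, ATTGAT and GTAAACA.

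Hnf4a P2, chr2:163506607-163506807, plus strand: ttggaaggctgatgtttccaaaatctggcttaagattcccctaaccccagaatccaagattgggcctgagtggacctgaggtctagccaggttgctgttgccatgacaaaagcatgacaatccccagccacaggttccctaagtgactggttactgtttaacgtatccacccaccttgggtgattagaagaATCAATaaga
Foxa2 upstream start, chr2:148047086-148047219, minus strand: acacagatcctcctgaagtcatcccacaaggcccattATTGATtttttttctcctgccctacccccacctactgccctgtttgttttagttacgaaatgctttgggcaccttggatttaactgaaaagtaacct
Foxa1, chr12:57546159-57546361, minus strand: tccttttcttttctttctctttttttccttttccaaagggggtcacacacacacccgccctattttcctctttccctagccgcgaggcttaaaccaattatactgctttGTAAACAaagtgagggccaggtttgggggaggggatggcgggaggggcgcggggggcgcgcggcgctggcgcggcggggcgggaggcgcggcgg

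The ONECUT motif ATCAAT was found 59 bases before the P2 start of *Hnf4a* and 213 bases before the upstream start of *Foxa2*. The FOXA motif TGTTTAC was found 141 bases before the *Foxa1* start. Over the 250 bases before each of 32851 RefSeq starts, read on both strands, ATCAAT occurred in 6.72% and TGTTTAC in 3.17%. Of the 12 starts annotated for the 8 members, 2 held ATCAAT and 1 held TGTTTAC. The HNF4 motif CAAAGTCCA, in 0.384% of all starts, and the CEBP motif TTGCNNCAA, in 1.74%, were in none of the 12. These matches are letters in a window and were not tested for binding.

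*Hnf4a* was the most abundant member over the 5 tumors other than tumor 1 of mouse 1, with 134.6 ± 40.8 TPM (SD, n = 5). *Cebpa* followed at 122 ± 50.2 TPM and *Cebpb* at 106 ± 32.4 TPM. Their order differed between tumors, so these 3 levels did not separate. *Foxa3* came next at 26.1 ± 3.81 TPM, below all 3 in each of the 5 tumors. *Prox1*, at 13.7 ± 3.89 TPM, and *Foxa2*, at 12.4 ± 2.74 TPM, lay below *Foxa3* in each tumor, and *Prox1* exceeded *Foxa2* in 4 of the 5. *Foxa1*, at 5.73 ± 2.01 TPM, was below *Foxa2* in all 5, and *Onecut1*, at 1.30 ± 0.704 TPM, was the lowest in all 5. *Onecut1* also varied most, with a coefficient of variation of 54.0%, against 14.6% for *Foxa3*. In tumor 1 of mouse 1 the order was another one, led by *Prox1*, *Foxa2* and *Onecut1*, with *Foxa1* and *Foxa3* last.

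**Figure D1:**
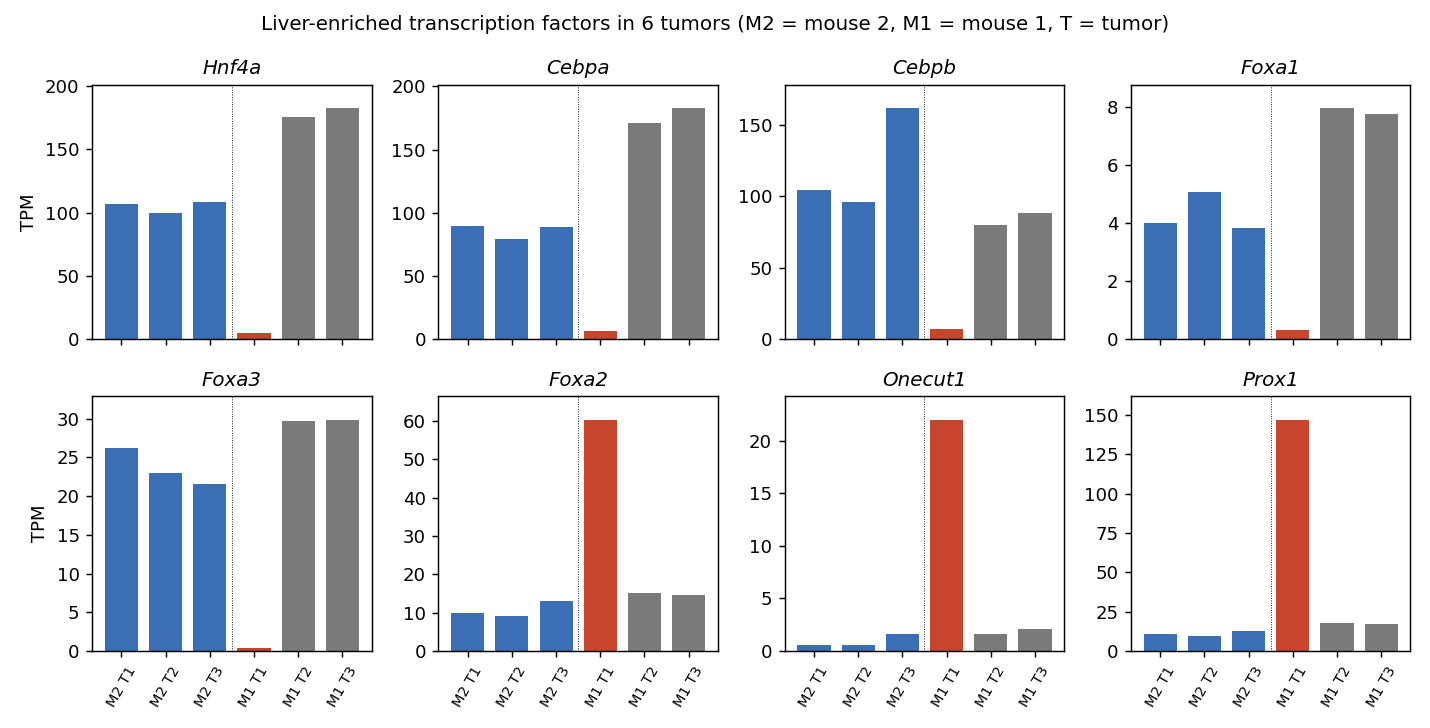
TPM of each factor (vertical axis, from 0, own scale per panel) in the 3 tumors of mouse 2 (blue), tumor 1 of mouse 1 (red) and the other tumors of mouse 1 (grey), 1 bar per tumor. *Hnf4a*, *Cebpa*, *Cebpb*, *Foxa1* and *Foxa3* have their lowest bar in tumor 1 of mouse 1, and *Foxa2*, *Onecut1* and *Prox1* their highest.

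The 8 factors parted into opposite directions in tumor 1 of mouse 1. *Hnf4a*, *Foxa1*, *Foxa3*, *Cebpa* and *Cebpb* were lowest there, and *Foxa2*, *Onecut1* and *Prox1* were highest. Being lowest in that tumor was the case for 5 of 8 members, against 21.8% of the 12518 genes that averaged 1 TPM or more, and being highest for 3 of 8, against 62.6%. The same 5 members were at least 4-fold below every other tumor, as were 10.1% of genes. At least 4-fold above every other tumor were 2 members, *Onecut1* and *Prox1*, and 19.1% of genes. *Foxa2* fell just outside, at 3.99 times the next tumor. By Dixon's ratio on log2(TPM + 1), 1 tumor stood apart from the other 5 for all 8 members and for 38.8% of genes.

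Higher values in that tumor were more common than lower ones. The median gene was 1.97-fold higher there in TPM than its median in the other 5 tumors (0.98 on the log2 scale), and 0.03 on the log2 scale after TMM scaling, which centers most genes. The members are therefore given on both scales.

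*Hnf4a* (chromosome 2, 163506811 to 163572907 in GRCm38), the nuclear receptor that many hepatocyte genes depend on, had 107, 99.6 and 108 TPM in tumors 1, 2 and 3 of mouse 2, against 5.08, 176 and 182 TPM in tumors 1, 2 and 3 of mouse 1. Tumor 1 of mouse 1, at 4.69% of the median of the others, lay below every tumor of mouse 2, while tumors 2 and 3 of mouse 1 lay above them. The log2 ratio of that tumor to the median of the other 5 was −4.42 in TPM and −5.90 after TMM scaling. By reads, the P1 transcripts took at least 99.4% of *Hnf4a* in each tumor. In TPM they took 88.9% in tumor 1 of mouse 1, where P2 took 11.1%, and at least 99.2% in the other 5. The P2 value there rests on 2 estimated reads over a fragment of 431 bases, the only P2 sequence in the tables. The others had 0 reads of it, which allows up to 3 per tumor, and P2 use beyond that fragment could not be measured.

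*Cebpa* (chromosome 7, 35119293 to 35121928), which restrains hepatocyte division and drives metabolic genes, had 89.8, 79.7 and 88.6 TPM in tumors 1, 2 and 3 of mouse 2, against 6.83, 171 and 183 TPM in tumors 1, 2 and 3 of mouse 1. Like *Hnf4a*, it was nearly flat across mouse 2 and about equal in tumors 2 and 3 of mouse 1. That tumor was at 7.60% of the median of the others, a log2 ratio of −3.72 in TPM and −5.34 after TMM scaling.

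*Cebpb* (chromosome 2, 167688915 to 167690432), the CEBP protein induced by cytokines and the acute phase, had 104, 96.3 and 162 TPM in tumors 1, 2 and 3 of mouse 2, against 7.07, 79.9 and 88.0 TPM in tumors 1, 2 and 3 of mouse 1. All of mouse 2 lay above all of mouse 1, as for 1 member and 1.75% of genes. The low tumor was at 7.34% of the median of the others, a log2 ratio of −3.77 in TPM and −5.16 after TMM scaling.

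*Foxa3* (chromosome 7, 19013283 to 19023539), a FOXA protein that sustains metabolic genes of the adult liver, had the lowest ratio of the 8 in tumor 1 of mouse 1. It had 26.3, 23.05 and 21.5 TPM in tumors 1, 2 and 3 of mouse 2, against 0.410, 29.8 and 29.9 TPM in tumors 1, 2 and 3 of mouse 1. The low value rests on 13 estimated reads, and the exact Poisson interval is 0.218 to 0.701 TPM, for counting error only at 95%. This was 1.56% of the median of the others (log2 ratio −6.00 in TPM and −6.86 after TMM scaling), and only 0.525% of genes had a lower ratio in TPM.

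*Foxa1* (chromosome 12, 57540628 to 57548029), a pioneer factor that acts with *Foxa2* in liver specification, had 4.002, 5.06 and 3.83 TPM in tumors 1, 2 and 3 of mouse 2, against 0.328, 7.97 and 7.77 TPM in tumors 1, 2 and 3 of mouse 1. The low value rests on 19 estimated reads, with an exact Poisson interval of 0.197 to 0.511 TPM at 95%. It was 6.47% of the median of the others, a log2 ratio of −3.95 in TPM and −4.99 after TMM scaling.

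*Foxa2* (chromosome 2, 148042877 to 148046969), the pioneer factor that also governs bile acid and lipid genes, was high where *Foxa1* and *Foxa3* were low. It had 9.80, 9.18 and 13.1 TPM in tumors 1, 2 and 3 of mouse 2, against 60.4, 15.1 and 14.6 TPM in tumors 1, 2 and 3 of mouse 1. Tumor 1 of mouse 1 was 4.59-fold above the median of the others, a log2 ratio of 2.20 in TPM and 1.30 after TMM scaling. This ratio was ordinary among genes, of which 77.1% had a lower one in TPM.

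*Onecut1* (chromosome 9, 74861921 to 74889648), a cut-homeodomain factor of hepatoblasts and biliary development, was barely expressed in 5 tumors. It had 0.602, 0.532 and 1.62 TPM in tumors 1, 2 and 3 of mouse 2, against 22.01, 1.62 and 2.13 TPM in tumors 1, 2 and 3 of mouse 1. Tumor 1 of mouse 1 was 13.6-fold above the median of the others, a log2 ratio of 3.76 in TPM and 3.16 after TMM scaling. The related *Onecut2* was opposite, with 0.252 TPM there, against 3.21 to 4.63 TPM elsewhere. It is named here after its values were seen.

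*Prox1* (chromosome 1, 190118035 to 190170827), a homeodomain factor of hepatoblasts and adult hepatocytes that also marks lymphatic endothelium, became the leading member in tumor 1 of mouse 1. It had 11.1, 9.26 and 12.7 TPM in tumors 1, 2 and 3 of mouse 2, against 147, 18.0 and 17.4 TPM in tumors 1, 2 and 3 of mouse 1. That tumor was 11.6-fold above the median of the others, a log2 ratio of 3.53 in TPM and 2.51 after TMM scaling. The list of lymphatic markers summed to 4.78 TPM there, against 4.48 to 10.8 TPM elsewhere, and its genes differed. *Lyve1* was at 0.449 TPM there against 3.09 to 6.71 TPM, *Flt4* was at 2.13 TPM, within the range of the others, and *Ccl21a* was listed at 0 in all 6. *Pdpn* was highest there, at 2.20 TPM against at most 0.357 TPM. The part of lymphatic endothelium in the level of *Prox1* was not tested. The ratio of *Prox1* to *Hnf4a*, whose protein PROX1 can bind and repress, was 28.9 in tumor 1 of mouse 1. In the other 5 tumors it stayed between 0.0929 and 0.117, a narrower band than that of either gene. This ratio was not among the shares planned. Both genes were lower in TPM in mouse 2 than in tumors 2 and 3 of mouse 1, as were 57.4% of genes, and a ratio cancels such a shared shift.

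**Figure D2:**
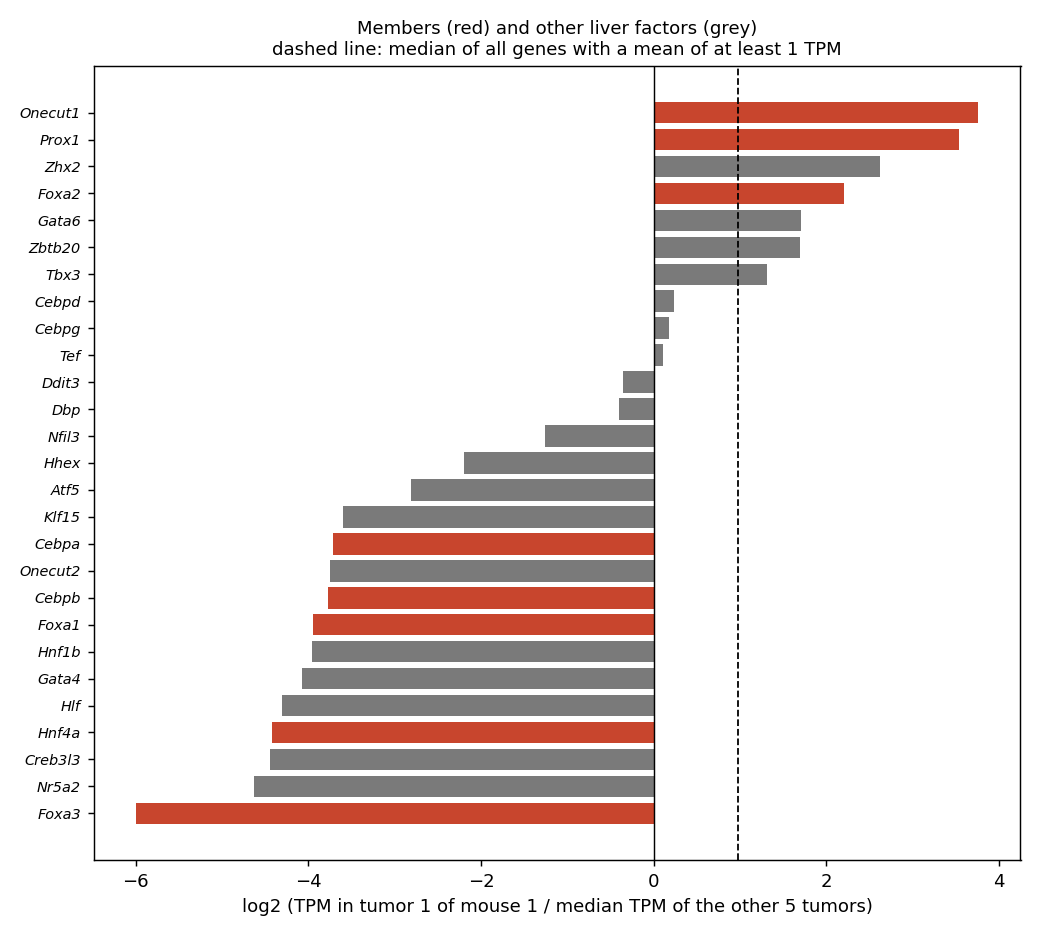
Log2 ratio of TPM in tumor 1 of mouse 1 to the median of the other 5 tumors (horizontal axis) for the 8 members (red) and for 19 other liver factors (grey), 1 bar per gene. The dashed line is the median of all genes at 0.98, and *Foxa3* at −6.00 and *Onecut1* at 3.76 are the ends of the range.

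Within the FOXA family nearly all RNA of tumor 1 of mouse 1 was *Foxa2*. *Foxa2* made up 24.5%, 24.6% and 34.1% of the summed FOXA TPM in tumors 1, 2 and 3 of mouse 2, against 98.8%, 28.6% and 27.96% in tumors 1, 2 and 3 of mouse 1. *Foxa3* was the main member in the other 5 tumors, with 0.670% in tumor 1 of mouse 1 and 55.9% to 65.5% in those 5. The sum itself was 40.1, 37.3 and 38.5 TPM in mouse 2, against 61.1, 52.8 and 52.3 TPM in mouse 1. All of mouse 2 lay below all of mouse 1 in this sum (exact two-sided permutation test, p = 0.1, the smallest that 3 against 3 tumors allow), as it did in TPM for 41.9% of single genes. For the share of *Foxa2* the same exact permutation test gave p = 0.5.

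The *Foxa2* transcripts also differed. The tables hold an upstream transcript with 2128 bases, which is the annotated length counted from the upstream RefSeq start at position 148046969 of chromosome 2, and a downstream transcript with 2070 bases, which is that counted from a start at 148045948. Only 108 bases of the first and 50 of the second are their own, so their split is an estimate. The downstream transcript made up 72.3%, 54.1% and 55.8% of the pair in TPM in tumors 1, 2 and 3 of mouse 2, against 97.7%, 39.9% and 46.1% in tumors 1, 2 and 3 of mouse 1. In estimated reads, tumor 1 of mouse 1 had 2077 from the downstream transcript and 50.1 from the upstream one. The upstream transcript was thus at 1.31 TPM there and at 2.68 to 8.02 TPM in the other 5, while the downstream one was at 56.3 TPM against 4.72 to 7.01 TPM. Over 6 tumors no difference between mouse 2 and mouse 1 was detected (exact permutation test, p = 1). Without tumor 1 of mouse 1, the share was higher in each tumor of mouse 2 (exact permutation test, p = 0.1, the smallest possible for 3 against 2). The nearest values were 54.1% and 46.1%, and how often transcripts of other genes separate in this way was not tested. Another *Foxa2* transcript, at 0.962% to 14.1% of *Foxa2* TPM, is not part of the pair. *Prox1* showed no change of its main transcript, since 1 transcript made up 95.3% to 99.0% of its TPM in all 6 tumors.

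The tumors of mouse 2 and mouse 1 did not overlap in the ratio of *Cebpb* to *Cebpa*. In TPM it was 1.16, 1.21 and 1.82 in tumors 1, 2 and 3 of mouse 2, against 1.03, 0.466 and 0.481 in tumors 1, 2 and 3 of mouse 1. All of mouse 2 lay above all of mouse 1, with a difference of 1.15 in mean log2 ratio, or 1.53 without tumor 1 of mouse 1 (exact two-sided permutation test, p = 0.1 for each, the smallest possible). The permutation test treats the tumors of 1 animal as independent, and how often other pairs of genes have such a ratio was not tested. In tumor 1 of mouse 1 both genes were low and their ratio was within the range of the other 5.

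**Figure D3:**
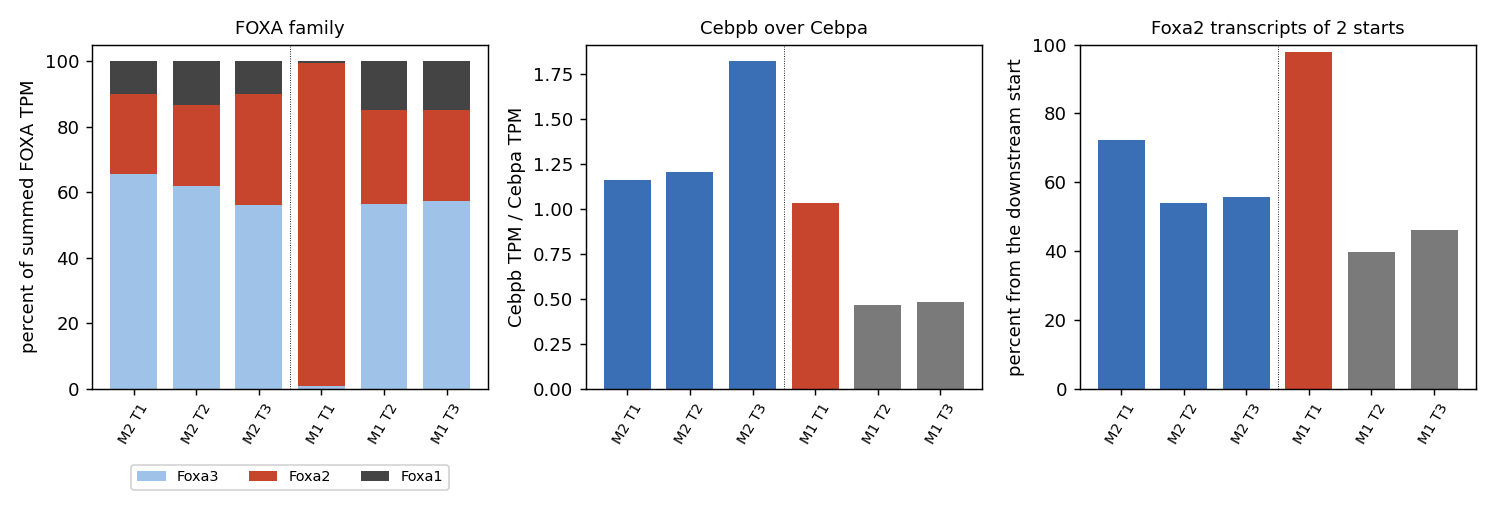
Left, percent of summed FOXA TPM from *Foxa3*, *Foxa2* and *Foxa1*; middle, *Cebpb* TPM over *Cebpa* TPM; right, percent of the downstream *Foxa2* transcript in its sum with the upstream one. Each bar is 1 tumor, with mouse 2 on the left, and *Foxa2* fills 98.8% of the FOXA bar of tumor 1 of mouse 1.

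Genes known as targets of these factors were about as low in tumor 1 of mouse 1 as *Hnf4a*, *Foxa1* and *Cebpa*. Of genes that averaged 1 TPM or more, 21.8% were lowest in that tumor. All 8 measured HNF4A targets were lowest there, at a median of 3.37% of the other tumors (range 1.46% to 5.73%), where the median of all genes was 197%. They include *Apoc3* and *Apob*, apolipoproteins of triglyceride-rich particles. *Apob* had 821, 737 and 655 TPM in tumors 1, 2 and 3 of mouse 2, against 11.6, 811 and 800 TPM in tumors 1, 2 and 3 of mouse 1. All 6 FOXA targets that averaged 1 TPM or more, of 8 measured, were lowest there too, at a median of 4.94%, with *Alb*, the thyroxine carrier *Ttr* and *Igfbp1* as the most abundant. Of 10 CEBP targets, 9 were lowest, at a median of 5.13%, led by the hemoglobin scavenger haptoglobin (*Hp*) with 102.6 TPM there against 1399 to 3127 TPM.

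Of the 6 targets assigned to ONECUT1 and PROX1, 5 were lowest in tumor 1 of mouse 1, where those factors were highest, and 1 was highest there. The list median was 4.60%. PROX1 is known to repress some of these genes, such as *Cyp7a1*, but whether it did so here was not tested. *Cyp2c70*, a bile acid hydroxylase, had 3.99 TPM there against 74.99 to 286 TPM. *Hnf4a*, among those that were lowest, and *Foxa2*, the one that was highest, are themselves members. Since hepatocyte markers in general were at a median of 4.08% there, the level of no target list can be told apart from that of hepatocyte RNA as a whole. The lists also share genes, so their medians are not independent. *Apob* is both a hepatocyte marker and an HNF4A target, and *Alb* and *Ttr* are both hepatocyte markers and FOXA targets. *Tat* and *Pck1* are listed for both FOXA and CEBP.

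**Figure D4:**
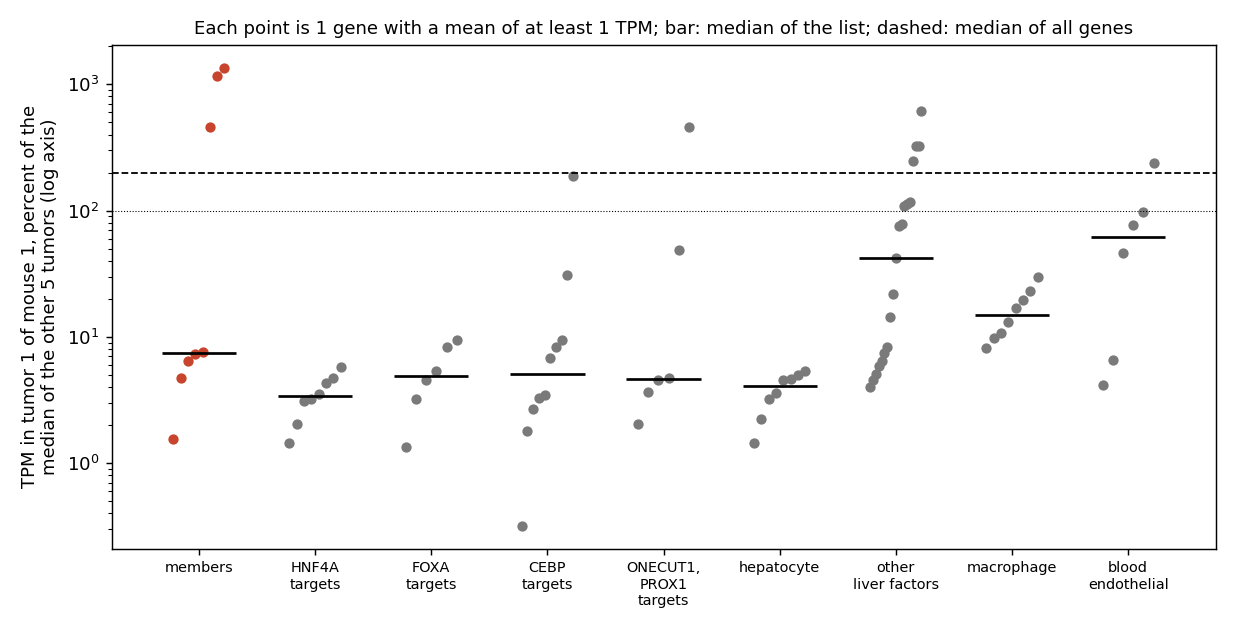
TPM in tumor 1 of mouse 1 as a percent of the median of the other 5 tumors (log axis) for the members (red) and for lists of genes (grey), 1 point per gene that averaged 1 TPM or more. Bars are list medians, the dashed line is the median of all genes at 197%, and the medians of the 4 target lists lie between 3.37% and 5.13%.

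Other liver factors were also lowest or highest in tumor 1 of mouse 1, but not all of them. Of 19 that averaged 1 TPM or more, 10 were lowest and 4 highest there, and the rest lay within the range of the others. Of all genes at that level, 21.8% were lowest and 62.6% highest there, so an extreme value in this tumor was common. The median of the 19 was 41.8% of the other tumors, where that of all genes was 197%. *Creb3l3*, a membrane-bound factor of lipid genes, had 5.29 TPM against 86.1 to 145 TPM. *Tef* and *Dbp*, output genes of the circadian clock, lay at 46.9 and 44.4 TPM there, within the range of the other 5. *Zhx2*, a repressor of *Afp*, had 28.4 TPM there against 2.43 to 6.02 TPM. *Zhx2* was chosen after its values were seen. Apart from *Foxa1*, a member, factors of other endodermal organs averaged under 1 TPM. *Sox17* was the most abundant of them, at 0.484 TPM over 6 tumors, *Cdx2*, *Pdx1*, *Nkx2-1* and *Sox2* were listed at 0 in all 6 tumors, and *Cdx1* reached 0.270 TPM in tumor 1 of mouse 1.

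Some markers of other cell types moved with that tumor as well. Of 6 blood endothelial markers, 4 were lowest there, against 21.8% of genes that averaged 1 TPM or more. *Clec4g* had 0.988 TPM there against 10.3 to 26.1 TPM, while *Cdh5* and *Vwf*, at 3.69 and 2.24 TPM, lay within the range of the others. All 8 macrophage markers were lowest there, as were 21.8% of genes that averaged 1 TPM or more. Their summed level was 95.5 TPM against 173 to 618 TPM. The most abundant were *Lyz2*, with 46.1 TPM there against 52.3 to 177 TPM, and the complement gene *C1qb*, with 22.2 TPM against 37.8 to 165 TPM. The cholangiocyte list summed to 44.2 TPM there against 4.61 to 36.4 TPM. Of it, *Spp1* had 33.0 TPM there against 1.40 to 30.4 TPM and *Krt19* had 5.10 TPM against at most 1.83 TPM, while *Sox9* had 0.715 TPM, within the range of the others. The stellate cell and fibroblast list summed to 85.6 TPM there against 19.4 to 76.3 TPM. That sum was led by *Acta2*, smooth muscle actin, with 50.05 TPM there against 1.29 to 4.56 TPM. *Dcn* and *Col1a1*, matrix genes, had 19.1 and 1.67 TPM there, within the range of the others. *Pdgfrb* was highest there, at 2.52 TPM against at most 1.63 TPM. *Lrat*, a defining gene of stellate cells, averaged only 0.706 TPM over 6 tumors and was lowest there at 0.0964 TPM. *Pdgfrb* and *Lrat* are named after their values were seen. The part of these cell types in the values of the members was not tested.

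Between the mice, none of the 8 members passed edgeR's quasi-likelihood test with 6 tumors, and 0% of the 13268 genes tested did (1449 genes had an unadjusted p under 0.05). DESeq2 called 133 genes higher and 69 lower and limma-voom 0, without a member among them, but DESeq2 gave *Onecut1* no p-value. The fitted log2 fold change of mouse 2 over mouse 1 was 1.78 ± 1.06 (SE) for *Cebpb*, with an edgeR adjusted p of 0.59. It was −1.99 ± 1.08 for *Onecut1* and −1.45 ± 0.78 for *Prox1*, each with an edgeR adjusted p of 0.56, and both of these rest on tumor 1 of mouse 1, since they were −0.16 ± 0.62 and −0.11 ± 0.26 without it. The value of *Prox1* also depended on the fit, at −0.82 with limma-voom and −2.25 with library size alone. The test compares 2 animals by the spread among tumors.

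Without tumor 1 of mouse 1, edgeR called none of the members and 1.26% of 13374 genes, or 168. With tumors 2 and 3 of mouse 1 summed into 1 sample it called 1 gene. In the fit of 5 tumors *Cebpb* came closest, 1.23 ± 0.37 higher in mouse 2 on the log2 scale (edgeR adjusted p = 0.16). Its size depended on the scaling, with 0.93 ± 0.30 by library size alone. With these 5 tumors DESeq2 called *Cebpb* at 1.22 ± 0.38 (adjusted p = 0.017) and no other member, beside 10.2% of genes. *Cebpa* was at −0.41 ± 0.21 and *Foxa1* at −0.32 ± 0.14, with edgeR adjusted p of 0.34 and 0.27. *Hnf4a*, at −0.21 ± 0.20, *Foxa3*, at 0.23 ± 0.15, and *Foxa2*, at 0.11 ± 0.25, did not pass either. In TPM, all of mouse 2 lay below tumors 2 and 3 of mouse 1 for 7 of 8 members, a pattern of 57.4% of genes, and for *Onecut1* only by a margin that vanishes on rounding. All of mouse 2 lay above them for *Cebpb*, a pattern of 4.51% of genes. With tumor 1 of mouse 1 included, all of mouse 2 lay below all of mouse 1 for *Foxa2*, *Prox1* and *Onecut1*, as for 41.9% of genes. TPM includes mitochondrial mRNA, which took 12.9% to 18.4% of the counts in mouse 2, against 6.90% to 8.38% in mouse 1.

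None of the 10 CEBP targets passed edgeR's test without tumor 1 of mouse 1, and their fitted values differed. *Hp* was at 0.27 ± 0.40, *Orm1*, an acute phase gene, at 0.17 ± 0.33 and *Tat*, a tyrosine-degrading enzyme, at 0.02 ± 0.39 on the log2 scale. *Saa1*, another acute phase gene, was at 3.66 ± 1.32, with 25.5, 65.7 and 371 TPM in tumors 1, 2 and 3 of mouse 2, against 21.1 and 23.8 TPM in tumors 2 and 3 of mouse 1.

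2 of the 19 other liver factors that were tested passed edgeR's test without tumor 1 of mouse 1, beside 1.26% of genes. Both are leucine zipper factors that were higher in mouse 2: *Cebpd*, by 1.53 ± 0.17 (edgeR adjusted p = 0.03), and *Atf5*, by 1.23 ± 0.18 (edgeR adjusted p = 0.048). They also passed with limma-voom (adjusted p = 0.014 and 0.025) and DESeq2 (adjusted p = 9.6e-11 and 2.1e-09), but not under the alternatives that follow. With library size alone *Cebpd* was at 1.28 and *Atf5* at 0.96 (edgeR adjusted p = 0.058 and 0.061). With tumors 2 and 3 of mouse 1 summed they were at 1.51 and 1.20 (edgeR adjusted p = 0.45 and 0.58), so neither passed under these alternatives, while the fold changes stayed of similar size. Macrophages also express *Cebpb*. Macrophage markers summed to 232, 537 and 173 TPM in tumors 1, 2 and 3 of mouse 2, against 618 and 601 TPM in tumors 2 and 3 of mouse 1. Neutrophil markers summed to 27.2, 20.5 and 32.2 TPM in mouse 2, against 19.98 and 17.6 TPM, but the genes of this list differed. *S100a9* was higher in mouse 2, with 10.7, 7.50 and 13.6 TPM against 6.67 and 4.90 TPM. *Csf3r* was lower, with 0.729, 0.786 and 0.429 TPM against 1.15 and 1.38 TPM, and *S100a8* and *Cebpe* overlapped. The part of macrophages or neutrophils in the level of *Cebpb* was not tested.

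**Figure D5:**
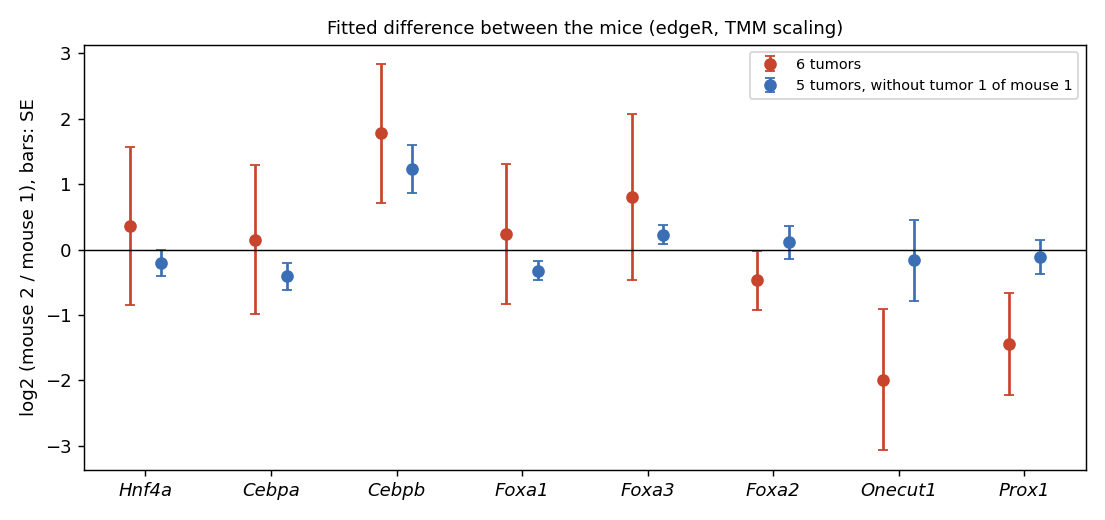
Fitted log2 fold change of mouse 2 over mouse 1 for each member (vertical axis, bars are SE), with all 6 tumors (red) and without tumor 1 of mouse 1 (blue). *Cebpb* lies above 0 in both, at 1.78 and 1.23, and the values of *Onecut1* and *Prox1* come near 0 without that tumor.

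Tumors 2 and 3 of mouse 1 held small amounts of the genes that tower in tumor 1 of the same mouse. *Cck*, a peptide hormone gene, had 0, 0 and 0.224 TPM in tumors 1, 2 and 3 of mouse 2, against 4455, 103 and 84.9 TPM in tumors 1, 2 and 3 of mouse 1. *T*, which encodes brachyury, was listed at 0 in each tumor of mouse 2, against 651, 10.4 and 11.3 TPM in mouse 1, so tumors 2 and 3 held 1.59% and 1.73% of the level in tumor 1. These genes were chosen after their values were seen. Whether RNA shared between these tumors adds to the levels of the members was not tested.

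For each member, the genes with the most similar pattern were taken as those with the smallest root mean square difference in centered log2(TPM + 1) among 8438 or 8439 genes with an established symbol that averaged 5 TPM or more. Over 6 tumors, the nearest to *Hnf4a* were *Gch1* (0.061) and *Sec14l2* (0.09), to *Foxa3* *Pzp* (0.046) and *Grb7* (0.079), to *Cebpa* *Chdh* (0.121) and *Slco2b1* (0.15), and to *Cebpb* *Entpd8* (0.139) and *Cutal* (0.153). *Foxa1* was nearest to *Ablim3* (0.087) and *Hsd17b7* (0.089), and *Foxa2* to *Sh3glb2* (0.09) and *Nono* (0.092). *Onecut1* was nearest to *Gprasp1* (0.123) and then to *Prox1* (0.18), the 1 case of a member among the nearest. *Prox1* was nearest to *Rbl1* (0.106) and *Bmp2* (0.132). All these patterns share the split of tumor 1 of mouse 1 from the rest. Over the other 5 tumors none of these genes was among the nearest, which were *Man2a2* and *Gne* for *Hnf4a*, *Itih4* and *Lage3* for *Cebpb*, and *Ppara* and *Dpyd* for *Onecut1*.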

How the data were processed

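RNAseq values of 6 tumors were used, each mapped to mouse 2 or mouse 1 by its label. The deposited tables hold estimated counts, which the authors did not normalize, and TPM, which the authors scaled for effective length and depth, in the layout of Salmon. Processing notes of the submitters list BWA, Picard and GRCm38 without roles. Which index release was used is not stated in the sources used here, and no column of another sample was present (0). Transcripts were matched without version to GENCODE vM39 for names alone (114813 of 116546, with 0.373% to 0.68% of counts unmatched) and summed per gene. Positions and promoters are from RefSeq for GRCm38.p6.

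The members, 17 lists of genes and tests were chosen with earlier results of these data known. The text names the 8 members, the 2 to 4 most abundant genes of the lists it describes plus those that pass, a few others chosen after their values were seen, and the 2 nearest genes of each member, and 2 genes of the lists or searches are not reported here. Gene counts were rounded and tested with edgeR 4.0.16 (quasi-likelihood, TMM, filterByExpr, Benjamini-Hochberg over all genes, two-sided), with DESeq2 1.42.0 and limma-voom (limma 3.58.1) as alternatives in R 4.3.3. The edgeR fit was also run on simulated counts with known changes, the same dispersion for every gene and no tumor that stood apart. That setting is unlike these tumors, so it does not show how the fit performs on them. Dixon's ratio used log2(TPM + 1) over 6 tumors. Shares used exact permutation tests over tumors. Antisense transcripts beside *Hnf4a*, *Cebpa*, *Onecut1* and *Prox1* are not analysed here. Values were summarized with pandas 2.3.3, numpy 2.4.6 and scipy 1.17.1 in Python 3.11.15, and drawn with matplotlib 3.10.9.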

Additional observations from a re-analysis of the deposited data

Results flagged for a closer look

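In each of the 8 factors, 1 tumor lay far from the other 5 on the log2(TPM + 1) scale, and in each case it was tumor 1 of mouse 1. Its gap to the nearest tumor, as a share of the whole range, was 0.898 for *Foxa3*, 0.824 for *Hnf4a*, 0.768 for *Prox1* and 0.768 for *Cebpb*. It was 0.744 for *Foxa2*, 0.739 for *Cebpa*, 0.736 for *Onecut1* and 0.676 for *Foxa1*. The share of FOXA TPM from *Foxa2* (0.870) and that from *Foxa3* (0.852) set the same tumor apart. In these data 38.8% of genes that averaged 1 TPM or more had 1 tumor that far from the rest. Chance alone would mark about 1 in 20 groups, and the 8 genes are not independent because they come from the same 6 libraries.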

How the results depend on the processing

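With 6 tumors, no member was called by edgeR, DESeq2 or limma-voom or under any scaling or filter tried, and edgeR called none when any 1 tumor was left out. *Onecut1* had no p-value in the DESeq2 fit with 6 tumors. DESeq2 called 202 genes where edgeR called 0, and leaving out 1 tumor in turn gave 0 to 168 genes, the 168 without tumor 1 of mouse 1. With library size alone the log2 fold change of *Foxa1* turned to −0.03 and that of *Cebpa* to −0.13. Values of uncalled members moved with the fit. With limma-voom *Hnf4a* was at 1.42, *Foxa1* at 1.78, *Foxa3* at 2.91 and *Cebpa* at 1.11, where edgeR gave 0.36, 0.24, 0.80 and 0.15, and *Prox1* was at −0.82 where edgeR gave −1.45. Leaving out 1 tumor in turn gave −0.21 to 0.78 for *Hnf4a*, −0.32 to 0.66 for *Foxa1*, −0.70 to 0.11 for *Foxa2* and −0.41 to 0.65 for *Cebpa*, with the sign turned only without tumor 1 of mouse 1. Against library size, TMM shifted the median log2 fold change by 0.52 with 6 tumors and by 0.26 with 5.

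Without tumor 1 of mouse 1, edgeR called 168 genes, limma-voom 477 and DESeq2 1369, and *Cebpb*, called by DESeq2 at 1.22, was the 1 member called under these alternatives. With library size alone *Cebpb* was at 0.93, *Foxa2* at −0.18 and *Foxa3* at −0.04. When tumors 2 and 3 of mouse 1 were summed into 1 sample, an alternative chosen after seeing the data together with RLE scaling and the removal of mitochondrial genes for these 5 tumors, edgeR called 1 gene and the lone sample was assumed to vary like mouse 2.

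Tumor 1 of mouse 1 stood apart for 8 of 8 members with a pseudocount of 0.1 and without mitochondrial genes, and 26 of 32 nearest genes were shared with a minimum of 1 TPM. With tumor number as a replicate block, edgeR called 0 genes and 0 members, and *Hnf4a* was at 1.19, *Foxa3* at 1.63 and *Prox1* at −0.95. Deviations of tumors with the same number had correlations of 0.0252, −0.0431 and 0.0494, so the number does not pair the samples. The depth limits *Foxa1* and *Foxa3* in tumor 1 of mouse 1, with 19 and 13 reads.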
